A study of Homo sapiens with 20 samples.

Results

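The genes examined here encode the core of the spliceosome and the factors that recognise the 3′ splice site. Some factors of the 5′ splice site and of nuclear speckles are also among them. They were followed in HepG2, a line of human hepatocellular carcinoma cells. The set held 49 genes, chosen by name. All 49 had a row in the table of FUBP1 RNA immunoprecipitation (RIP), which held 28278 rows. Skipped exon events are exons counted as either joined into the RNA or jumped over. Of 19792 such events listed for siFUBP1 against siCtrl2, 88 in 35 of these genes belonged to the set. Of 32990 listed for U3 ASO against GFP ASO, 149 in 40 genes did, and of 7065 listed for siFBL against siCtrl, 33 in 19 genes did.

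The cells had been treated in 3 separate experiments, each with its own controls. In the first, an siRNA against FUBP1 (siFUBP1) or a control siRNA (siCtrl2) was given and RNA was collected after 48 h, with 3 libraries each. In the second, an antisense oligonucleotide (ASO) against the U3 small nucleolar RNA or against GFP, as the control, was given for 72 h, again with 3 libraries each. In the third, an siRNA against FBL (siFBL) or a control siRNA (siCtrl) was given for 48 h, and FUBP1 RIP and its input were sequenced with 2 libraries each, and the input libraries gave the splicing data. The siRNA and ASO libraries of the first and second experiments were made from polyadenylated RNA and the inputs of the third from RNA of the lysate, so levels are compared within an experiment only. The study's methods call the libraries biological replicates without saying whether the cells were grown on separate days.

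FUBP1 is a nuclear RNA-binding protein that acts early in splice site recognition. FBL is the enzyme that puts 2′-O-methyl groups on RNA at places chosen by box C/D small nucleolar RNAs, to which U3 belongs. An intron is defined when U1 snRNP binds its 5′ splice site, SF1 binds the branch point, and the U2AF2 and U2AF1 proteins bind the pyrimidine-rich stretch and the AG that end it. U2 snRNP, which carries the SF3A and SF3B proteins, then replaces SF1 at the branch point, and the U4/U6.U5 tri-snRNP joins to form the catalytic machine. Genes of the splicing machinery are themselves alternatively spliced, and several are known to carry exons that shift the reading frame and direct the RNA to nonsense-mediated decay (NMD).

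Depth differed between the experiments. Junction reads per library at listed events were between 2693397 and 4474350 in the siFUBP1 experiment, between 11249641 and 13321799 in the U3 experiment and between 910779 and 1142189 in the siFBL experiment, and the 49 genes held 16680 to 30465, 98235 to 120527 and 2688 to 3896 of them. Testing required 10 or more junction reads per library on average, which left 83, 144 and 30 events of the set. Of 8 hepatocyte genes fixed as a check of the cell line, 7 had listed events in each table. The FUBP1 gene itself had 74.1, 93.5 and 83.8 length-scaled junction reads per 1000000 in siCtrl2 and 13.8, 16.8 and 6.83 in siFUBP1, so all 3 depleted libraries lay below all 3 controls. It had 87.6, 81.1 and 78.5 in GFP ASO and 60.3, 58.1 and 49.8 in U3 ASO. FBL had a mean normalized count of 1034 in siCtrl and 164 in siFBL as the authors' mean for each condition, each from its own comparison of RIP with input, and no event of FBL was listed.

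The splice sites of the exons on which the results turn are shown first. Each 3′ splice site is given as the last 20 bases of the intron in lower case and the first 3 bases of the exon in capitals, and each 5′ splice site as the last 3 bases of the exon in capitals and 6 bases of the intron in lower case. All are from the hg38 genome, 5′ to 3′ on the strand of the gene.
SRRM1 130-base exon, 3′ splice site: tgtgatttatgatttaaaagGCC
SRRM1 130-base exon, 5′ splice site: GAGgtgagt
TIA1 104-base exon, 3′ splice site: ttgggtttttgttataaaagTGC
TIA1 104-base exon, 5′ splice site: GAGgtatgg
SON 80-base exon, 3′ splice site: tgtatggaaacttgtttcagGGC
SON 80-base exon, 5′ splice site: TAGgtatgt
SF1 exon 3, 3′ splice site: cctaacctggtttcttccagTGC
SF1 exon 3, 5′ splice site: CAGgttggg
SNRPA1 exon 6, 3′ splice site: tgtgtgtggtgtcgctgtagGAG
SNRPA1 exon 6, 5′ splice site: AACgtaaga
SNRPG exon 2, 3′ splice site: ttacccttttcctttttcagATT
U2AF2 exon 3, 3′ splice site: ctttccctcccaccccccagCAA

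The pyrimidine share of the last 20 intron bases differed among these exons, and a link to the direction of change was not tested. It was 45% for the SRRM1 130-base exon and 50% for the TIA1 104-base exon, the SON 80-base exon and SNRPA1 exon 6, against 70% for SF1 exon 3 and 85% for SNRPG exon 2 and U2AF2 exon 3. Over the 128 distinct exons of the set tested in the U3 experiment the median was 70%, the same as over all 25916 exons tested there. All 128 introns ended in AG. Exons of the set had a median length of 106 bases against 117 over all exons, and 48.4% had a length divisible by 3 against 41.4%. Coding exons made up 78.9% of the set and 79.2% of all exons, and 4 exons of the set (3.12%, against 2.88% of all) were annotated only in transcripts without a coding label of which at least 1 was marked for NMD.

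In the controls of the siFUBP1 and U3 experiments most exons of the set were nearly always joined, with 56 of 83 and 112 of 144 events over 0.95, and in those of the siFBL experiment 14 of 30 were. The inclusion level is the length-scaled share of inclusion reads, from 0 to 1, and its median over the set in the control libraries was 0.988 in the siFUBP1 experiment, 0.998 in the U3 experiment and 0.845 in the siFBL experiment. In the U3 experiment 42 of 43 events of U2 snRNP genes had a control level over 0.95, and so did 17 of 20 of the Sm ring genes, which encode the ring of proteins that U1, U2, U4 and U5 snRNPs share. Among 9 events of the genes that recognise the branch point and the pyrimidine stretch (SF1, U2AF2 and PUF60) 4 exceeded 0.95, and the median was 0.631. Of 10 events of the nuclear speckle genes SON, SRRM1 and SRRM2, 4 exceeded 0.95.

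Under U3 depletion the set held 4 called exon events, and they went in both directions. An exon of SRRM1 that lies in no coding transcript and an unannotated exon of TIA1 were included more, and coding exons of SF1 and SNRPA1 were included less. An event is called at an adjusted p under 0.1 in a quasi-binomial test, adjusted over all events tested. In each table the prior estimated with limma had infinite weight, so the test uses the spread typical of events with similar information and not the spread of the event itself, and an event with uneven libraries can have a low p. Of 144 events of the set 4 were called, against 0.226% of all 30109 events. With limma fitted to log2 odds in place of this test, none of the 4 was called, and 0 of all events, without a variance trend or with one on the mean, while all 4 were called with a trend on the information, which was chosen after seeing the data. With the larger of the event's own dispersion and the typical one, also chosen after seeing the data, only the SRRM1 event stayed called (adjusted p = 0.00359), and those of TIA1, SF1 and SNRPA1 did not (0.185, 0.297 and 0.121). At an unadjusted p under 0.05 there were 15 of 144, against 4.13% of all events. The groups of libraries did not overlap at 15 of 143 events with reads in every library, against 6.18% of all events, and 11 of these were lower and 4 higher, against 3.81% and 2.37% of all events. With 3 against 3 libraries and no ties, random labels separate the groups with a probability of 0.1, here and in the siFUBP1 experiment. Ties at 0 or 1 lower this probability, and their part in these shares was not tested. Over the set 90 events were lower and 54 higher, with a median change of -0.00124, and over all events 17815 were lower and 12287 higher, with a median of -0.00355. Events of the set had more reads, with a median of 505.7 per library against 124.5 over all events, and the shares above were not adjusted for this.

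**Figure D1:**
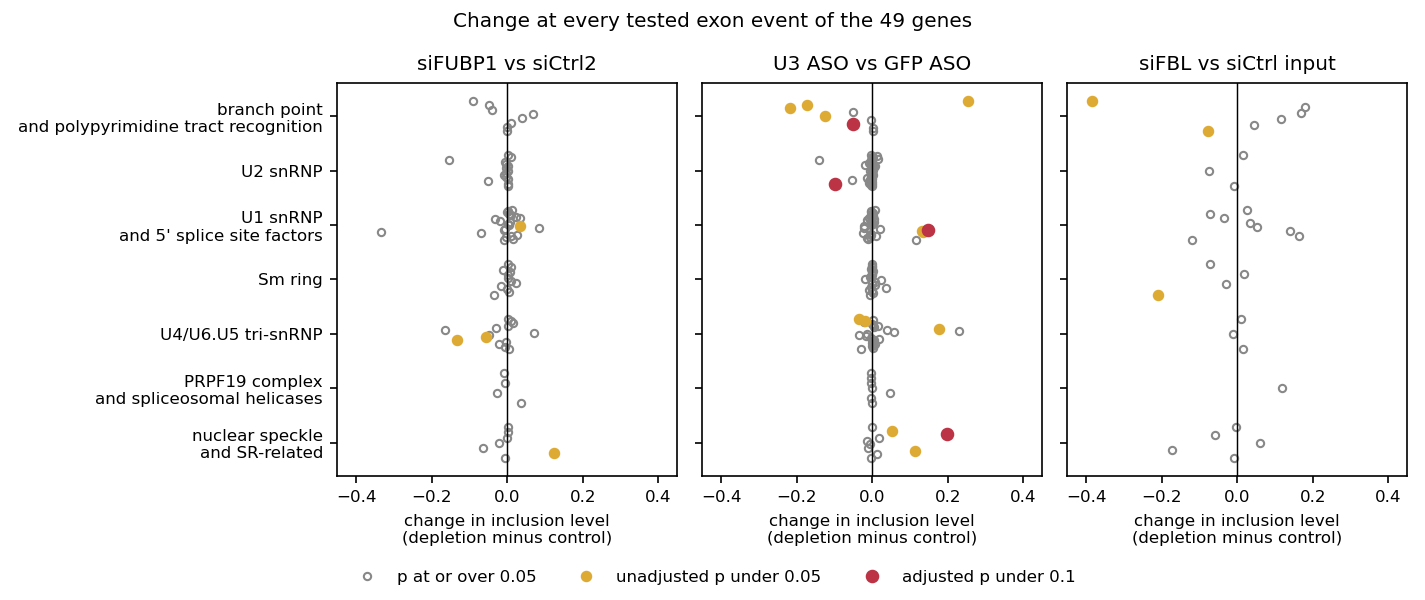
Change in inclusion level (depletion minus control, x axis) of every tested exon event of the 49 genes, by role in the spliceosome (rows) and experiment (panels). Red points are called events (adjusted p under 0.1), and yellow points had an unadjusted p under 0.05. The 4 called events are all in the U3 panel, and most Sm ring and U2 snRNP points in the siFUBP1 and U3 panels lie near the line at 0.

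SRRM1 encodes a serine- and arginine-rich nuclear matrix protein that works as a splicing coactivator. Its 130-base exon lies at chr1:24647079-24647208 (hg38, plus strand), and 2 annotated transcripts hold it, of which 1 is marked for NMD and none is coding. The length is not divisible by 3. Inclusion was 0.0266, 0.0935 and 0.114 in the GFP ASO libraries and 0.277, 0.273 and 0.282 in the U3 ASO libraries. All 3 U3 ASO libraries lay above all 3 controls, and they differed from each other by less than the controls did. The mean rose by 0.199, from 0.0782 ± 0.0458 to 0.277 ± 0.00489 (SD, n = 3 each), and the adjusted p was 0.000489. Without GFP ASO library 1, which was the lowest, the change was 0.173 and the adjusted p was 0.292. In the siFUBP1 experiment the same exon stood at 0.112, 0.220 and 0.186 in siCtrl2 and at 0.279, 0.0463 and 0.194 in siFUBP1, with overlapping groups.

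TIA1 encodes an RNA-binding protein that binds U-rich sequence beside weak 5′ splice sites and helps U1 snRNP there. The 104-base exon at chr2:70225465-70225568 (minus strand) overlaps no exon of the gene in GENCODE. It stood at 0, 0.0233 and 0 in GFP ASO and at 0.209, 0.188 and 0.0686 in U3 ASO. A level of 0 allows a share of reads of up to 2.40% at the 125 reads of the first control library and 2.08% at the 144 reads of the third, counting error only. All U3 ASO libraries were higher than the controls, with the third nearer to them. The mean rose from 0.00776 ± 0.0134 to 0.155 ± 0.0760 (SD, n = 3 each; adjusted p = 0.0468). The call was lost without GFP ASO library 1 (adjusted p = 0.2) or 3 (0.336) and without U3 ASO library 1 (0.447) or 2 (0.461), with changes between 0.121 and 0.144.

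SF1 is the branch point binding protein. Its exon 3, a coding exon of 76 bases at chr11:64773430-64773505 (minus strand), is held by 13 annotated transcripts. Inclusion was 0.975, 0.979 and 0.996 in GFP ASO and 0.955, 0.939 and 0.906 in U3 ASO, with at least 1263 reads in each library. Every U3 ASO library was below every GFP ASO control, at an exon which these controls nearly always joined. The control libraries of the other experiments lay between 0.924 and 0.961 at this exon, so the U3 ASO levels of 0.955 and 0.939 fall within their range. The mean fell by 0.0498, from 0.983 ± 0.0111 to 0.933 ± 0.0249 (SD, n = 3 each; adjusted p = 0.0914). Without GFP ASO library 2 or 3 the adjusted p was 0.215 or 0.736, and without U3 ASO library 2 or 3 it was 0.248 or 0.955, with the change still between -0.0361 and -0.0528.

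SNRPA1 encodes the A′ protein of U2 snRNP. Exon 6, 80 coding bases at chr15:101286214-101286293 (minus strand), was included at 0.969, 1 and 0.997 in GFP ASO and at 0.886, 0.859 and 0.924 in U3 ASO. The groups did not overlap. The mean fell by 0.0987, from 0.989 ± 0.0171 to 0.890 ± 0.0327 (SD, n = 3 each; adjusted p = 0.0914). The call was lost without GFP ASO library 2 (adjusted p = 0.614) or 3 (0.451) and without U3 ASO library 1 (0.305), 2 (0.831) or 3 (0.144), while the change stayed between -0.0834 and -0.116. In the siFUBP1 experiment this exon stood at 1, 0.922 and 1 in siCtrl2 and at 1, 1 and 0.927 in siFUBP1. Its means were 0.810 in siCtrl and 0.801 in siFBL, from only 14 reads per library. Single controls thus reached the U3 ASO range. All 4 called events kept their direction in every fit without 1 library, which is certain where the groups are separate and so gives no further support.

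**Figure D2:**
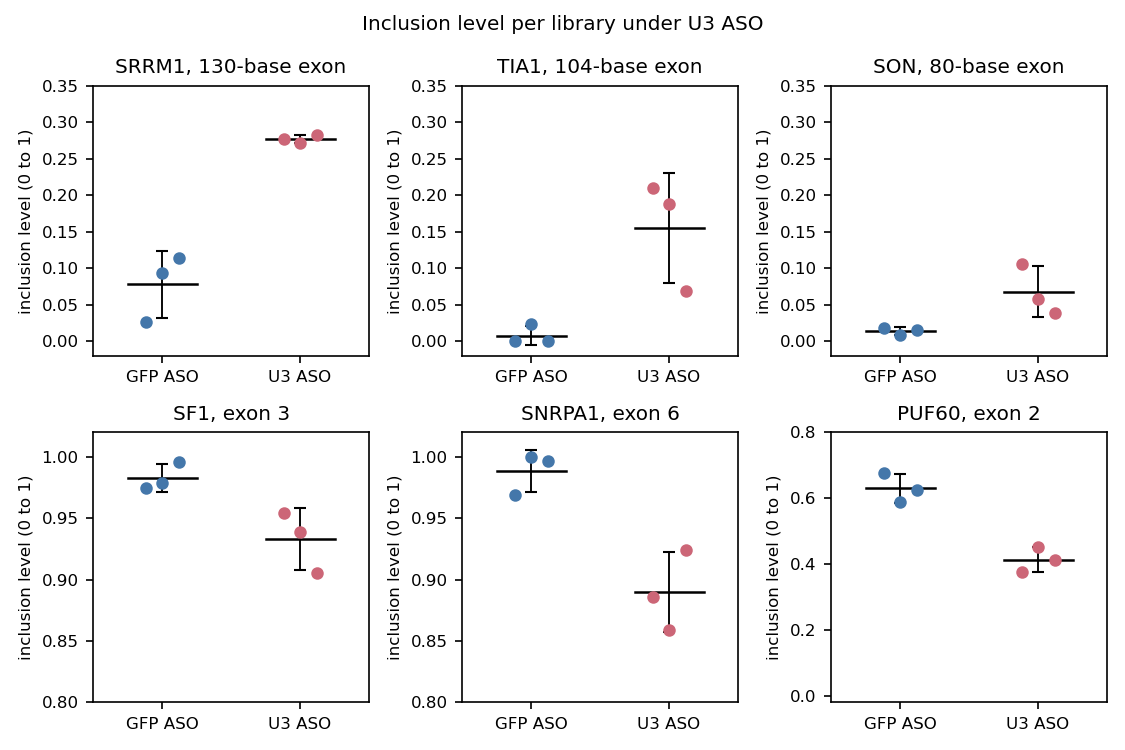
Inclusion level (y axis, 0 to 1, with the axis from 0.8 for SF1 and SNRPA1) of 6 exons in each GFP ASO library (blue) and U3 ASO library (red), with the mean as a line and the SD as bars (n = 3 each). In every panel the U3 ASO libraries lie apart from the controls, above them for SRRM1, TIA1 and SON and below them for SF1, SNRPA1 and PUF60.

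A further 11 events of the set had an unadjusted p under 0.05 and were not called. The 80-base exon of SON, a scaffold protein of nuclear speckles, lies at chr21:33572551-33572630 (plus strand), and none of the 7 transcripts that hold it is coding, while 3 are marked for NMD. It was at 0.0183, 0.00878 and 0.0153 in GFP ASO and at 0.107, 0.0581 and 0.0386 in U3 ASO, with separate groups (unadjusted p = 0.000353, adjusted p = 0.140). PUF60, a U-rich binding partner of U2AF2, gave 0.678, 0.589 and 0.625 in GFP ASO and 0.376, 0.452 and 0.412 in U3 ASO at its 87-base exon 2 (chr8:143824313-143824399, minus strand). The groups were apart by more than the spread within either (unadjusted p = 0.000915, adjusted p = 0.272). A form of this exon that is 84 bases long, shorter by 3 bases at its 3′ splice site and counted on partly the same reads, went from 0.376, 0.518 and 0.413 to 0.234, 0.285 and 0.266.

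In SF1, a 205-base exon near the other end of the gene (chr11:64765951-64766155) had 0.492, 0.396 and 0.437 in GFP ASO and 0.309, 0.298 and 0.346 in U3 ASO (unadjusted p = 0.00806). It too was lower in every U3 ASO library. PRPF38B, a factor related to the tri-snRNP, has a 71-base exon whose ends match no annotated exon (chr1:108697947-108698017), with 0.100, 0.297 and 0.124 in GFP ASO and 0.315, 0.311 and 0.426 in U3 ASO (unadjusted p = 0.0240). In siFUBP1 this exon was at 0.0175, 0 and 0 against 0.289, 0 and 0.225 in siCtrl2, from 14 to 45 reads per library. TIA1 had another exon of 119 bases, known only from a noncoding transcript (chr2:70228344-70228462), listed as 2 events that share it. At the deeper one it was at 0.204, 0.0190 and 0.128 in GFP ASO and at 0.391, 0.202 and 0.152 in U3 ASO, with overlap between the groups.

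The remaining events with an unadjusted p under 0.05 were less even. DDX23, a tri-snRNP helicase, had 1, 1 and 1 in GFP ASO at its exon 8 and 0.976, 0.988 and 0.932 in U3 ASO, and at its exon 3 levels of 0.953, 0.992 and 1 in U3 ASO against 1 in each control. The 42-base coding exon of SRRM1 went from 0.506, 0.655 and 0.471 to 0.617, 0.644 and 0.711 with overlap. Exon 5 of PUF60, 51 bases long, was spread widely within the controls. It stood at 0.189, 0.114 and 1 in GFP ASO and at 0.513, 0.970 and 0.577 in U3 ASO (unadjusted p = 0.0497, which leaves out the wide spread of its own controls). GFP ASO library 3 held 547 reads there and no skipping read, and without that library the change went from 0.253 to 0.536 and passed the threshold (adjusted p = 4.39e-06).

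Direction and annotation can be set side by side over these 15 events. The 7 lower events were all exons of protein-coding transcripts. Of the 8 higher events 6 matched no exon of a protein-coding transcript at both ends, or 75%. Of these 6, 3 were in TIA1, where the 119-base exon is counted more than once. Exons with no annotated match fall in this class too, among them the 71-base exon of PRPF38B, which overlaps an annotated exon. Over all events with an unadjusted p under 0.05 in this experiment, 26.7% of the 655 higher and 8.32% of the 589 lower matched no exon of a protein-coding transcript in the same way. At exons known only from transcripts without a coding label and with at least 1 NMD transcript, 508 of 819 events were higher over all genes and 3 of 4 in the set. Those 819 events fall on 747 distinct exons, so some exons are counted more than once. No test was made of these shares within the set.

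The events can also be counted by role. In the group of SF1, U2AF2 and PUF60, 5 of 9 events had an unadjusted p under 0.05, against 4.13% of all events, and 2 of the 5 were the 87- and 84-base forms of PUF60 exon 2, which share reads. In the nuclear speckle group it was 3 of 10, in the tri-snRNP group 3 of 25, in the group of U1 snRNP and 5′ splice site factors 3 of 30, all in TIA1 and 2 of them at 1 exon, and in U2 snRNP 1 of 43. None of the 20 Sm ring events or of the 7 events of the PRPF19 complex and helicases reached that level, and Sm ring changes lay between -0.0190 and 0.0357. The share of skipping reads over the whole set was 4.65% ± 0.329 with GFP ASO, against 4.63% ± 0.0610 with U3 ASO (SD, n = 3 each; exact two-sided permutation p = 1). Over all events of the table it was 5.19% ± 0.0589 and 5.81% ± 0.0547 (exact permutation p = 0.1, below which 3 against 3 cannot go). The share pools the raw reads of all listed events, so it also moves with how many reads each event holds.

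A further 5 exons that vary in the controls were named from genes without an event at an unadjusted p under 0.05. They were thus chosen in part for a small difference under U3 ASO. Reads per library were 1573 for SNRPG, 715 for SRRM2, 186 for DHX8, 104 for TIAL1 and 119 for PRPF3, against a median of 505.7 in the set. SNRPG exon 2, only 23 bases long, was at 0.930, 0.901 and 0.929 in GFP ASO and at 0.914, 0.942 and 0.883 in U3 ASO. SRRM2, the large partner of SON in nuclear speckles, had 0.736, 0.691 and 0.564 at its exon 2 and then 0.657, 0.675 and 0.695. DHX8, a helicase that releases the spliced RNA, had 1, 0.9 and 0.861 at its exon 2 and then 0.952, 0.965 and 0.985. The 62-base noncoding exon of TIAL1, a relative of TIA1, was at 0.170, 0.326 and 0.153 and then at 0.389, 0.310 and 0.297, and a 96-base noncoding exon of PRPF3 at 0.0375, 0.0863 and 0.0330 and then at 0.196, 0.0775 and 0.0529. None of these 5 had separate groups.

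The number of junction reads per gene gave a second readout. It sums the length-scaled junction reads of the listed events of a gene per 1000000 of the table, so it is a level of reads at these events and not a measure of gene expression, and lower RNA per cell cannot be told apart from fewer cells that hold it. Several Sm genes have processed copies elsewhere in the genome, and how reads that match several places were treated is not given in the sources used here, so their levels are uncertain. Under U3 ASO the median log2 difference over all 6934 genes was 0.245 with scaling to the table total, and changes of the set are read relative to that shift. By limma 16 of 40 genes passed at an adjusted p under 0.1, 13 higher and 3 lower, against 52.9% of all genes tested (40.8% higher and 12.2% lower). The median over the set was 0.0598, and 30 of 40 genes lay below the median of all genes. With median-of-ratios scaling, which brought the median of all genes to 0.0187, 5 genes of the set were called higher and 13 lower, against 21.2% and 22% of all genes (43.2% in all), so the direction of calls in the set depends on the scaling.

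Among the 7 Sm ring genes all lay below the median of all genes, with log2 differences from -0.330 to -0.0248 under total scaling, and their sign was the same under both scalings. SNRPE was at 190, 224 and 243 scaled reads in GFP ASO and at 179, 173 and 168 in U3 ASO, with a log2 difference of -0.33 ± 0.093 (SE; adjusted p = 0.00805). SNRPF fell by 0.21 on the log2 scale (SE 0.068; adjusted p = 0.0198). Under total scaling these 2 of the 7 passed, and under median-of-ratios scaling 7 of 7 passed, all lower, with log2 differences between -0.56 and -0.25. PRPF6, which bridges U5 to U4/U6 in the tri-snRNP, also fell, from 572, 548 and 575 to 481, 513 and 487 scaled reads (log2 difference -0.20, SE 0.059, adjusted p = 0.0128), and it was called lower under both scalings. Without a variance trend SNRPF and PRPF6 did not pass (adjusted p = 0.124 and 0.117).

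**Figure D3:**
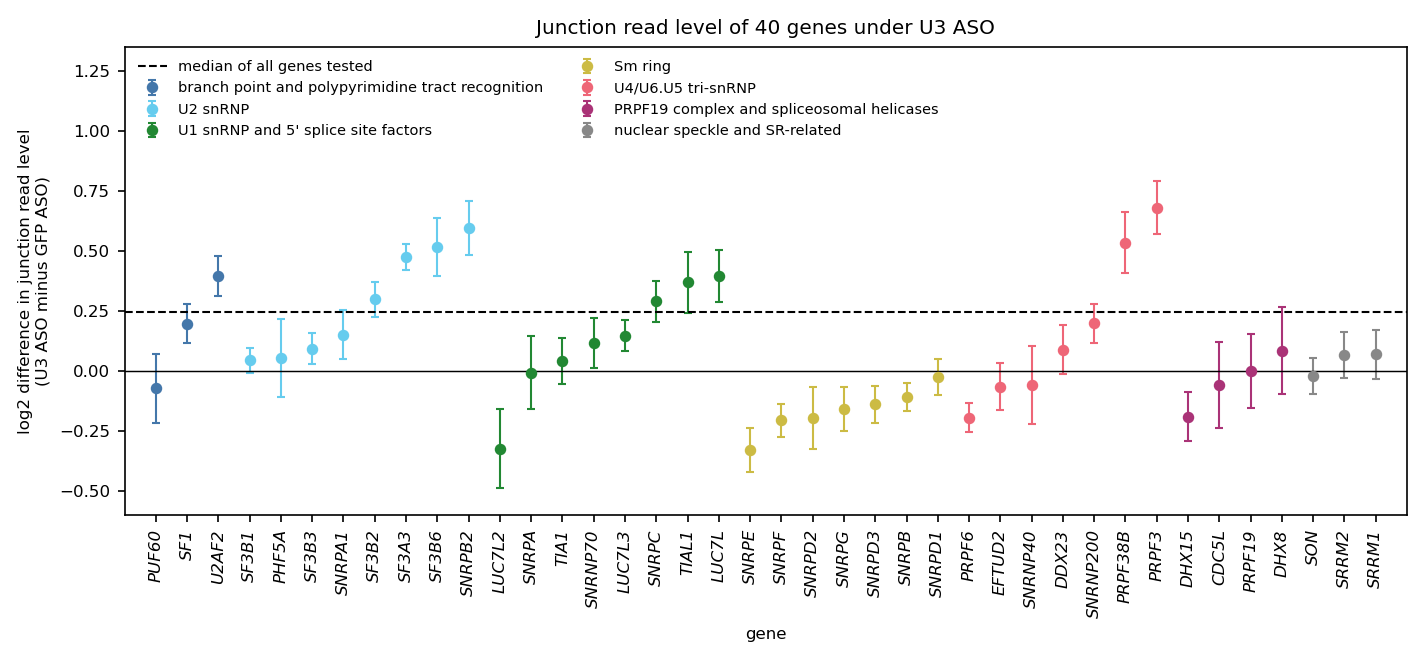
Log2 difference in junction read level between U3 ASO and GFP ASO (y axis, scaled to the table total, error bars are SE of the limma fit, n = 3 each) for 40 genes of the set, grouped and coloured by role. The dashed line is the median of all genes tested, 0.245. All 7 Sm ring genes lie below 0, whereas U2 snRNP genes reach from 0.0432 to 0.597, and from -0.187 to 0.368 under median-of-ratios scaling.

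Genes called higher under both scalings belonged to U2 snRNP and the tri-snRNP. SF3A3, a subunit of SF3A, had 656, 659 and 691 scaled reads in GFP ASO and 916, 958 and 912 in U3 ASO, a log2 difference of 0.47 ± 0.053 (SE; adjusted p = 1.98e-06). PRPF3 of the U4/U6 snRNP had 73.1, 70.8 and 66.3 and then 111, 124 and 104 (0.68 ± 0.11; adjusted p = 1e-04). SNRPB2, the B′′ protein of U2 snRNP, rose by 0.60 ± 0.11, SF3B6, which sits by the branch point adenosine, by 0.52 ± 0.12, and PRPF38B by 0.53 ± 0.13, each in log2 and with SE. These 5 were the genes also called higher with median-of-ratios scaling, where their log2 differences were 0.24, 0.45, 0.37, 0.29 and 0.31.

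The other genes called higher passed only under total scaling. U2AF2 went from 172, 157 and 182 to 213, 224 and 235 (log2 difference 0.40, adjusted p = 0.00113), and under median-of-ratios scaling it was 0.17 (adjusted p = 0.143). SF3B2, LUC7L and SNRPC had log2 differences of 0.30, 0.39 and 0.29 under total scaling and 0.07, 0.16 and 0.06 under the other. TIAL1, SNRNP200, SF1 and LUC7L3, named here after their values were seen, were called under total scaling at 0.37, 0.20, 0.20 and 0.15, and the last 3 turned to -0.03, -0.03 and -0.08 under median-of-ratios scaling. Genes called lower only under median-of-ratios scaling, beside Sm genes, were SF3B1, EFTUD2, DHX15, LUC7L2 and SON, also named after their values were seen. Their log2 differences were -0.19, -0.29, -0.42, -0.55 and -0.25 there, and 0.04, -0.07, -0.19, -0.32 and -0.02 under total scaling.

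After FUBP1 depletion no event of the set was called, and at 7 of the 8 events of SF1, U2AF2 and PUF60 the inclusion levels overlapped those of the controls. Of 83 events 0 were called, against 0.197% of all 16213 events. At an unadjusted p under 0.05 there were 4, against 4.59% of all events, and limma on the log2 odds called 0 with each of 3 variance settings. The groups did not overlap at 2 of 83 events, against 5.16% of all events. The set had 38 lower and 45 higher events with a median change of 0.000816, and 15.7% of its events moved by over 0.05, against 36.6% of all events, which had fewer reads (a median of 60.0 per library against 174.5 in the set).

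The non-overlapping events were in SF1 and PRPF6. SF1 exon 3 was at 0.961, 0.943 and 0.924 in siCtrl2 and at 1, 0.972 and 0.970 in siFUBP1, so every depleted library was above every control (change 0.0379, unadjusted p = 0.0680). The first siFUBP1 library had no skipping read among 501, which allows a share of up to 0.599%. PRPF6 exon 15 (chr20:64025939-64026058, 120 bases) went from 0.988, 0.991 and 0.972 to 0.968, 0.958 and 0.962 (change -0.0214, unadjusted p = 0.152).

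Of the 4 events with an unadjusted p under 0.05, SRRM2 exon 2 (chr16:2756334-2756606, partly coding) had the most reads. It stood at 0.746, 0.535 and 0.640 in siCtrl2 and at 0.709, 0.842 and 0.740 in siFUBP1, with overlapping groups and a change of 0.124 (unadjusted p = 0.0299, adjusted p = 0.812). A noncoding 109-base exon of TIA1 was at 0 in 5 libraries and at 0.104 in siFUBP1 library 2, and 2 overlapping events at exon 9 of PRPF3 were at 1 in 5 libraries and at 0.604 and 0.827 in siFUBP1 library 1. Each of these 3 differences rests on 1 library and was 0 without it. SNRPG exon 2 was at 0.917, 0.955 and 0.944 in siCtrl2 and at 0.904, 0.944 and 0.866 in siFUBP1. LUC7L exon 3, from a gene for a U1-associated protein, was at 0.935, 1 and 0.889 and then at 0.969, 1 and 0.953.

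Skipping reads made up 5.88% ± 0.710 of the set's reads with siCtrl2, against 6.97% ± 0.303 with siFUBP1 (SD, n = 3 each). All 3 siFUBP1 libraries were above all controls (exact two-sided permutation p = 0.1, the smallest possible here), at 6.63%, 7.22% and 7.06% against 5.16%, 6.58% and 5.90%. The share pools reads over events, so it also moves with the read level of each gene. The SON 80-base exon, at a mean inclusion of 0.00111 in siCtrl2 and 0.00289 in siFUBP1, is nearly always skipped. It held 118, 196 and 87 reads in siCtrl2 and 269, 209 and 161 in siFUBP1. How much of the difference in the share comes from read levels was not tested. Over all events of the table the shares were 6.88% ± 0.0413 and 6.99% ± 0.0852 (exact permutation p = 0.2).

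Junction read levels after FUBP1 depletion differed for SON and SNRPG. Of 34 genes of the set 2 passed at an adjusted p under 0.1, 1 higher and 1 lower, against 18.2% of all 3928 genes (9.11% lower and 9.04% higher). SON was at 161, 202 and 150 scaled reads in siCtrl2 and at 292, 289 and 227 in siFUBP1, a log2 difference of 0.66 ± 0.15 (SE; adjusted p = 0.00873), which exceeded 95.9% of all genes. SNRPG was at 354, 309 and 292 and then at 258, 243 and 223, a log2 difference of -0.40 ± 0.12 (adjusted p = 0.0386). The SNRPG call was lost without siCtrl2 library 1 (adjusted p = 0.157) or siFUBP1 library 3 (0.118) and without a variance trend (0.136). The median over the set was -0.0237, beside -0.0189 over all genes, and under median-of-ratios scaling both stayed called in the same direction, against 18% of all genes (8.25% lower and 9.8% higher).

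After FBL depletion, at the lowest depth, no event of the set was called either, and the 3 events with an unadjusted p under 0.05 were all lower, in PUF60, U2AF2 and SNRPG. None of the 5208 events of the whole table was called (0% of all), and 2.25% had an unadjusted p under 0.05. With the dispersion trend on mean reads of all events these 3 were called, while limma on the log2 odds called 0 with each of 3 variance settings. The groups, of 2 libraries each, did not overlap at 9 of 28 events of the set with reads in every library, against 14.4% of all events, and 5 of these were lower and 4 higher, against 7.97% and 6.43% of all events. Of the higher ones 3 were in the group of SF1, U2AF2 and PUF60, where the forms of PUF60 exon 2 share reads. Events of the set had more reads, with a median of 64.4 per library against 40 over all events. The set had 15 lower and 15 higher events.

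PUF60 exon 5 (chr8:143820666-143820716, minus strand) was at 0.516 and 0.709 in siCtrl and at 0.174 and 0.281 in siFBL (change -0.385, unadjusted p = 0.0257, adjusted p = 0.874). Both siFBL libraries were lower, but controls of the other experiments ranged from 0.114 to 1 at this exon. U2AF2 exon 3 (chr19:55660177-55660221, 45 bases, plus strand) was at 0.987 and 1 in siCtrl and at 0.895 and 0.937 in siFBL (unadjusted p = 0.0432). In the 12 libraries of the other experiments it was never below 0.970. SNRPG exon 2 (chr2:70289350-70289372, minus strand) went from 0.957 and 0.990 to 0.794 and 0.734 (change -0.210, unadjusted p = 0.0447), and its lowest level in the other experiments was 0.866.

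Other exons were apart between the groups without a p under 0.05. SRRM2 exon 2 was at 0.644 and 0.643 in siCtrl and at 0.547 and 0.397 in siFBL (unadjusted p = 0.0667). SF1 exon 3 was at 0.953 and 0.958 in siCtrl and at 1 in both siFBL libraries, whose 95 and 126 reads allow a skipping share of up to 3.16% and 2.38%. An untranslated exon of SNRPD2 (115 bases) was at 0.0443 and 0.101 in siCtrl and at 0 in both siFBL libraries, whose 55 and 22 reads allow a share of reads of up to 5.45% and 13.6%. PUF60 exon 2, in its 87-base form, was at 0.636 and 0.763 and then at 0.962 and 0.777. SRRM1's 42-base exon, at 0.363 and 0.414 and then 0.406 and 0.491, overlapped. The share of skipping reads over the set was 15.0% ± 0.932 in siCtrl and 16.3% ± 0.899 in siFBL (SD, n = 2 each; exact permutation p = 0.33, the smallest that 2 against 2 allow). Over all events of the table it was 7.61% ± 0.00657 and 7.47% ± 0.123 (exact permutation p = 0.33), a difference in the other direction.

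The junction read level was lower for SF1 and SRRM1. Of 13 genes of the set 2 passed, both lower, against 9.86% of all 1248 genes (7.21% lower and 2.64% higher). SF1 had 366 and 383 scaled reads in siCtrl and 153 and 197 in siFBL, a log2 difference of -1.11 ± 0.25 (SE; adjusted p = 0.0321). SRRM1 had 151 and 262 and then 66.9 and 86.5, a log2 difference of -1.38 ± 0.39 (adjusted p = 0.0715). The median of all genes was -0.139 here, and both stayed lower and called under median-of-ratios scaling, against 7.29% of all genes (3.21% lower and 4.09% higher). Without siFBL library 1 or 2 neither passed (adjusted p of 0.209 and 0.108 for SF1, and 0.284 and 0.191 for SRRM1), and without siCtrl library 2 SRRM1 did not (0.366). Without a variance trend neither passed (adjusted p of 0.224 and 0.226). SRRM2 was at 448 and 411 and then at 306 and 285, which did not pass (adjusted p = 0.190).

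The same exons can be followed through the 3 experiments, with their own controls in each. SF1 exon 3 was lower in every U3 ASO library than in its controls, and in the siFUBP1 and siFBL experiments every depleted library was higher than its controls, with unadjusted p of 0.000194, 0.0680 and 0.273. Its control means differed too, at 0.983 in GFP ASO, 0.943 in siCtrl2 and 0.955 in siCtrl. The siFUBP1 mean of 0.981 was thus near the GFP ASO mean. PUF60 exon 2 (87-base form) changed by -0.217 with U3 ASO, by -0.0399 with siFUBP1 and by 0.170 with siFBL. The SRRM2 exon 2 changes were 0.0123, 0.124 and -0.172, and those of SNRPG exon 2 were -0.00681, -0.0340 and -0.210. The TIA1 104-base exon changed by 0.148 with U3 ASO, by -0.00577 with siFUBP1 and by 0.141 with siFBL, where a single siFBL library of 10 reads was above 0. The difference between experiments was not tested for any exon.

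**Figure D4:**
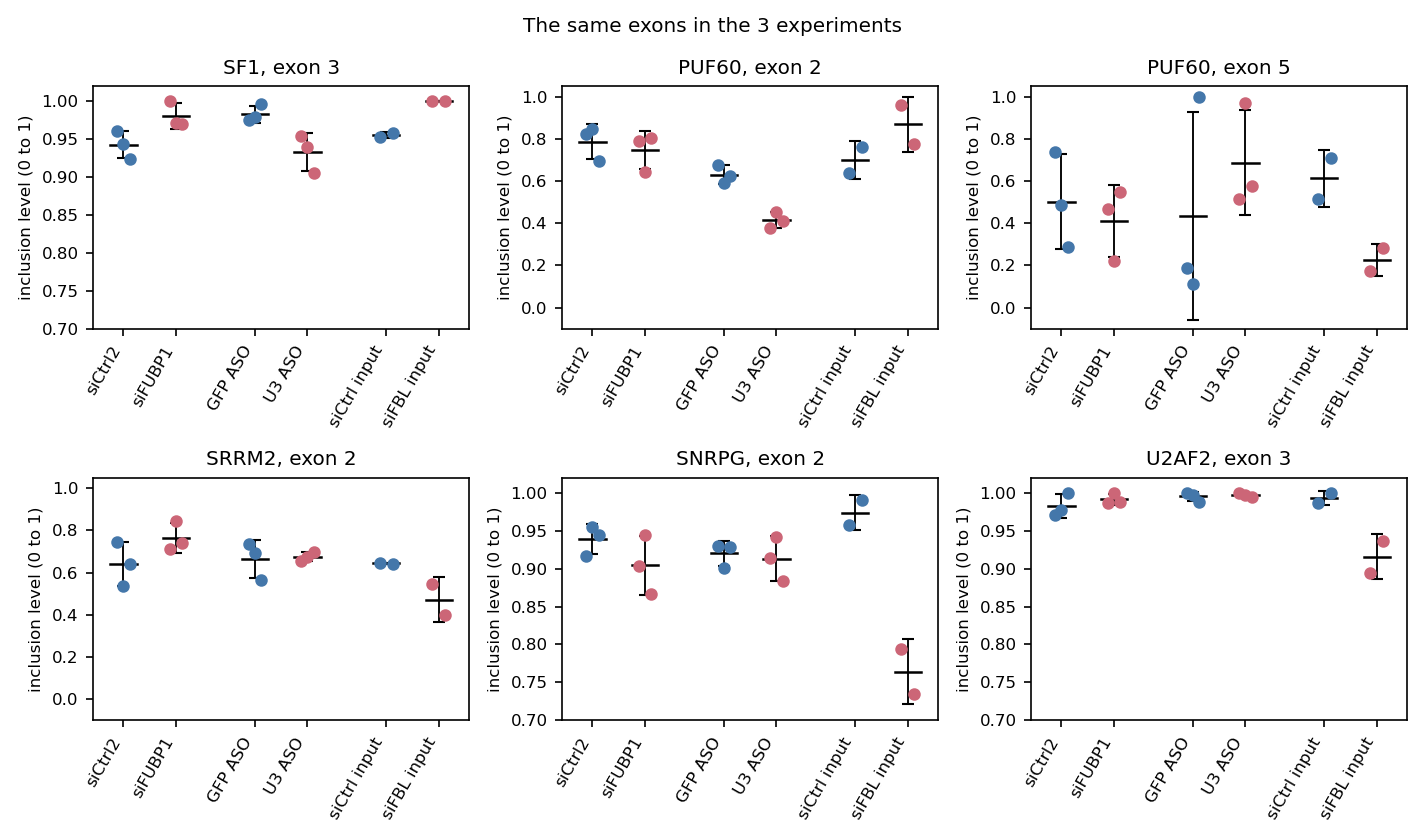
Inclusion level (y axis, 0 to 1, from 0.7 for SF1, SNRPG and U2AF2) of 6 exons per library in control (blue) and depleted (red) cells of the 3 experiments, with mean and SD (n = 3 each for siFUBP1 and U3 ASO, n = 2 each for siFBL). SF1 exon 3 lies below its controls with U3 ASO and above them with siFUBP1 and siFBL, and PUF60 exon 5 varies from 0.114 to 1 among control libraries.

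Other genes of the spliceosome, from a separate list of 61, held no called event. Of their 57, 116 and 20 tested events in the siFUBP1, U3 and siFBL experiments 0 were called, against 0.197%, 0.226% and 0% of all events. At such shares a list of this size is likely to hold none. An unadjusted p under 0.05 was found at 1, 4 and 1 of these events, against 4.59%, 4.13% and 2.25% of all events. Limma on the log2 odds also called 0 of them in each experiment with each of 3 variance settings. Their junction read level was called lower for 1 of 21 genes with siFUBP1, against 9.11% of all genes. With U3 ASO it was called lower for 2 and higher for 14 of 38, against 12.2% and 40.8%, and with siFBL for 0 of 6, against 9.86%. Their median log2 difference with U3 ASO was 0.230, close to the 0.245 of all genes, and that of the 49-gene set was 0.0598.

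In the RIP table only the authors' mean normalized count per gene was read, a score that covers RIP and input together and says nothing of binding. The median over the set was 2113 in siCtrl and 2209 in siFBL, which put the median gene of the set above 87.7% and 89.3% of all rows. SON, SRRM2 and PRPF38B had the highest means in siCtrl, at 23395, 23302 and 23228, and 16160, 15160 and 20200 in siFBL. U2AF1, which reads the AG at the 3′ splice site, was listed at 0 in both conditions, and the hg38 genome carries a near-identical copy of this gene, so that its value is uncertain. It was also among the 8 genes with no tested exon event in any table, with PRPF31, PRPF4, PRPF8, SF3A1, SF3A2, SF3B4 and SF3B5, whose mean counts in siCtrl ran from 164 for PRPF31 to 3248 for SF3A1.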

How the data were processed

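RNA-seq of 12 HepG2 libraries and FUBP1 RIP-seq with input of 8 were made by the authors, who trimmed adapters with Cutadapt, aligned reads to hg38 with HISAT2 and called skipped exons with rMATS from junction reads. Tool versions are not given in the sources used here. The deposited rMATS tables list, for each event, the inclusion and skipping junction reads of each library, and list positions carry no replicate number, so libraries are named by position. The inclusion level was computed as a fraction from these reads. Another 6 columns of inclusion levels, and all columns of the authors' own comparisons (differences, fold changes, p-values, false discovery rates), were not used. The RIP table came from gene counts (HTSeq in the methods, featureCounts in the labels' notes) and DESeq2, and from it only the deposited mean normalized count, treated as a score, was printed as the authors' mean.

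Events were tested with a quasi-binomial F test (R 4.3.3) whose dispersion was the trend value fitted by limma 3.58.1 on the information of the event, since the prior had infinite weight (reads times inclusion share times skipping share, prior from events with at least 5). P-values were adjusted over all tested events by Benjamini-Hochberg, and the threshold was 0.1. Junction read levels were log2 values (pseudocount 0.5 per 1000000, mean of at least 50 scaled reads) fitted with limma with a variance trend. All tests were two-sided, and scripts were tested on simulated data. Named were called events, up to 15 with an unadjusted p under 0.05, then for other genes the event with the most reads among those with control inclusion from 0.05 to 0.95, and called genes up to 12. Annotation was GENCODE release 44, splice sites were read with pyfaidx 0.9.0.4, and coordinates count from 1. The genes and lists were chosen with earlier results of these data known. Alternatives changed the test, the filters, the threshold, the scaling and the libraries. Reads carry no stated molecular identifiers, so limits cover counting error only.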

Additional observations from a re-analysis of the deposited data

How the results depend on the processing

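No paired analysis was possible because the lists of reads carry no replicate numbers that tie a library to another group. The count of called events of the set under U3 ASO, 4 in the report, depended most on the test: it was 0 with limma on the log2 odds without a variance trend and with a trend on the mean, 4 with a trend on the information (an alternative chosen after seeing the data), 2 with the dispersion trend on mean reads of all events, 1 with the larger of the event's own dispersion and its trend value (also chosen after seeing the data), 2 at an adjusted p under 0.05, and 1 to 2 without 1 library. Over all events the same settings called 0, 0, 251, 59, 41 and 51 in place of 68, and 33 to 60 without 1 library. For siFUBP1 they called 8, 2, 87, 52, 26 and 26 over all events in place of 32, and 20 to 30 without 1 library, and for siFBL 0, 0, 6, 102, 0 and 0 in place of 0, of which 3 with the trend on mean reads were in the set. A minimum of 20 junction reads or none left the count in the set at 4, 0 and 0. Called junction read levels in the set numbered 1 with siFUBP1 without a variance trend and 1 to 2 without 1 library. With siFBL they numbered 0 without a variance trend, 1 with only the deepest event of each gene and 0 to 2 without 1 library. After siFUBP1 the change at the TIA1 109-base exon was 0 to 0.0518 without 1 library, and at the 75- and 80-base forms of PRPF3 exon 9 it was -0.198 to 0 and -0.0864 to 0. SNRPF and PRPF6 levels under U3 ASO were not called without a variance trend (adjusted p = 0.124 and 0.117), and the share of called genes that were higher went from 81.2% to 27.8% with median-of-ratios scaling. The siFBL comparison had a median of 64.4 reads per library and event in the set, against 505.7 with U3 ASO and 174.5 with siFUBP1, and 2 libraries a group, and effects of depth and of the number of libraries cannot be told apart. The cause of these differences was not tested.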

Other observations

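Control inclusion levels of the set could be set side by side for 29 events in 18 genes that were tested in all 3 experiments. The range over the 3 control means was under 0.05 at 18 of them, with a median range of 0.0332. It was over 0.2 at 1 event, the 84-base form of PUF60 exon 2, named after its values were seen, where the control means were 0.769 in siCtrl2, 0.436 in GFP ASO and 0.674 in siCtrl. The 3 experiments differ in reagent, RNA preparation and depth, and these cannot be told apart here.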
